A study of Mus musculus with 2 samples.

Results

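The interferon regulatory factors (IRFs) are transcription factors that switch on interferon genes and the genes that interferons induce. The genes described here are Irf1, Irf2, Irf3, Irf4, Irf5, Irf7, Irf8 and Irf9, taken by name from the deposited gene table. They are 8 of its 23176 genes, and 6 of them are among the 12740 genes that the authors tested. mRNA was sequenced in a pair of immortalised mouse lines, STHdhQ7 (genotype HdhQ7/Q7) and STHdhQ111 (genotype HdhQ111/Q111). Both derive from embryonic day 14 striatum of the 129SvEv/CD1 strain and were used at fewer than 15 passages. They are called the Q7 line and the Q111 line below. STHdhQ7 carries the short and STHdhQ111 the long CAG tract in both copies of the huntingtin gene, whose expansion in humans causes Huntington's disease. Both lines grew at 33 °C and spent 2 days at 39 °C, which stops their division, before RNA was taken. The sample titles name 3 replicates per line, but the table gives 1 combined value per line. No spread between replicates can therefore be shown, and nothing in the labels says whether the replicates were separate cultures or technical repeats. One line stands for each genotype, so huntingtin genotype and the history of the line cannot be told apart. No interferon or virus treatment is named in the labels of either line.

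All IRFs share an N-terminal DNA-binding domain marked by a repeat of tryptophans. It recognises GAAA repeats in the interferon-stimulated response element (ISRE). Irf3 and Irf7 wait in the cytoplasm, are phosphorylated by the kinases Tbk1 and Ikbke when viral nucleic acid is sensed, and then drive type I interferon genes. Secreted interferon acts through its receptor and Janus kinases to form ISGF3, the complex of Irf9 with STAT proteins such as Stat2, which induces the interferon-stimulated genes, Irf7 among them. Irf1 is an activator induced by interferon gamma, Irf2 competes with it at the same sites, Irf5 acts below Toll-like receptors, and Irf4 and Irf8 shape lymphoid and myeloid cells. In the brain Irf8 is known as a factor of microglia.

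Levels are the authors' FPKM, that is, fragments per kilobase of transcript scaled to the mapped total, so they are corrected for transcript length and can be compared between genes. Differences are the log2 fold change of STHdhQ111 over STHdhQ7 in the authors' deposited table. Its implied standard error (SE) is the size of the log2 fold change divided by that of the deposited test statistic, and the 95% intervals below are built from that error without adjustment for many genes. A gene is referred to as called when the authors' q-value, adjusted over all tested genes, is 0.05 or less. The sum of FPKM over all genes was 426021 in the Q7 line and 427714 in the Q111 line, and sequencing depth is unknown. In the authors' deposited table no change under 2.03-fold was called, and the implied standard error had a median of 0.44 on the log2 scale. Of 13 striatal neuron markers, 9 had no test and none of those 9 exceeded 0.182 FPKM, Drd1a (0 FPKM in both lines) and Ppp1r1b included. Of the other 4, Foxp1 was called higher and Meis2 lower in the Q111 line, and Penk and Ebf1 were not called. Of 3 tested general neuron markers Stmn2 was called lower (33.5 FPKM in the Q7 line and 0.0563 FPKM in the Q111 line). Tubb3 and Mtap2 were not called. Of 6 tested progenitor markers Nes, Sox2 and Pax6 were called lower and Dlx2 higher, and Vim and Dlx1 were not called. The called shares of the tested striatal, neuron and progenitor markers were 50%, 33.3% and 66.7%, each from few genes. Among all tested genes the called share was 13.5%.

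Irf7 and Irf9 were called higher in the Q111 line, and no IRF was called lower. The other 4 tested members (Irf1, Irf2, Irf3 and Irf5) were not called, and Irf4 and Irf8 had no test. Among all tested genes, 13.5% were called, 6.35% higher and 7.17% lower. The 2 calls among 6 tested members are 33.3% of them, a share that rests on few genes. The median log2 ratio of (FPKM + 0.5) was 0.68 over the 6 tested members and -0.05 over all tested genes. In bulk RNA, a higher level per cell and more cells that express a gene cannot be told apart.

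The 2 lines had different IRF genes at the top of the order of levels. In STHdhQ7 the order from high to low was Irf2, Irf3, Irf1, Irf9, Irf7, Irf5, Irf8 and Irf4. In STHdhQ111 it was Irf7, Irf9, Irf1, Irf2, Irf3, Irf5, Irf8 and Irf4. Irf7 therefore moved from place 5 to place 1 and Irf9 from place 4 to place 2, while Irf5, Irf8 and Irf4 held the last places in both lines. With 1 value per line, it cannot be said which neighbours in either order differ beyond their spread. The summed level of the 8 genes was 71.8 FPKM in the Q7 line and 204.1 FPKM in the Q111 line, a ratio of 2.84. Irf7 made up 3.64% of the sum in the Q7 line and 39.1% in the Q111 line. Irf7 accounted for 58.3% of the gain in the sum and Irf9 for 29.4%.

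**Figure D1:**
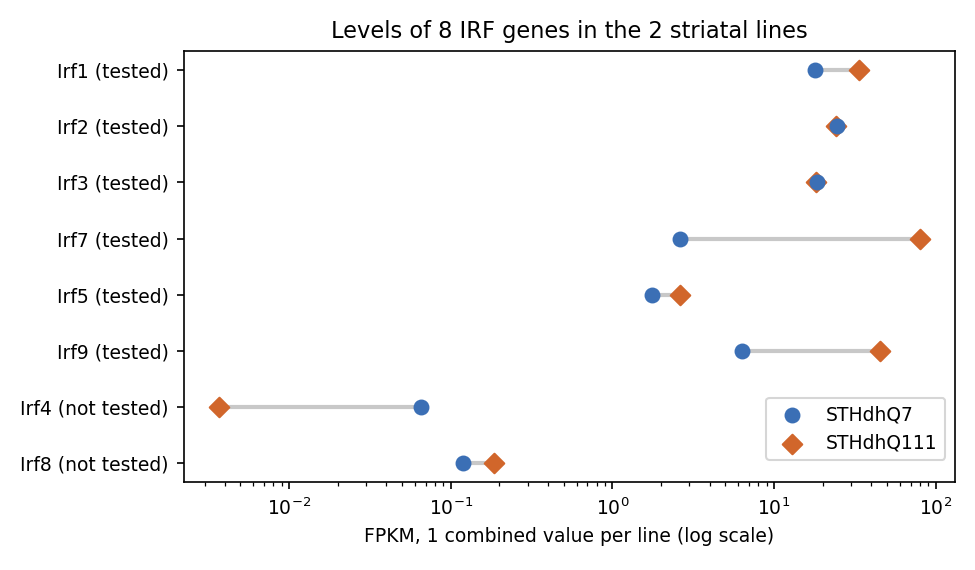
Level of each IRF gene in FPKM (log axis) in the Q7 line (circles) and STHdhQ111 (diamonds), 1 combined value per line with no replicate error. Irf7 (2.62 and 79.7 FPKM) and Irf9 (6.36 and 45.3 FPKM) lie far apart between the lines, the symbols of Irf2 and Irf3 coincide, and Irf4 and Irf8 stay under 0.2 FPKM.

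Of the virus-activated factors, Irf7 was called higher and Irf3 was not called. Irf7, the factor that amplifies interferon production, lies on chromosome 7 at 148449082 to 148452323 (mm9). It was listed at 2.62 FPKM in the Q7 line and 79.7 FPKM in the Q111 line. That is 30.5-fold more in the Q111 line, with an implied 95% interval of 14.4-fold to 64.6-fold. The authors' deposited table gave Irf7 a log2 fold change of 4.93 (implied SE 0.55) and listed its q as 0. Among the 10681 tested genes that reached 1 FPKM in each line, this was gain number 13 from the top. Irf7 stood at percentile 22.2 of the levels of tested genes in the Q7 line and at percentile 92.5 in the Q111 line. Its constitutively present relative Irf3 (chromosome 7, 52253018 to 52258218, mm9) was listed at 18.4 FPKM and 18.2 FPKM in the Q7 line and STHdhQ111. The Irf3 values nearly coincide, and the authors' deposited table gave a log2 fold change of -0.02 (q = 0.995), for which the implied 95% interval was -0.89 to 0.84. That interval still holds changes of Irf3 of moderate size in either direction. The level of Irf3 was 7.05 times that of Irf7 in the Q7 line, and in the Q111 line the level of Irf7 was 4.39 times that of Irf3. Irf5 (chromosome 6, 29476625 to 29487320, mm9) was low in both lines, at 1.76 FPKM in the Q7 line and 2.63 FPKM in the Q111 line. It was not called: the authors' deposited table gave a log2 fold change of 0.58 (q = 0.786), and the implied 95% interval was -0.63 to 1.78.

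Irf9, the DNA-binding subunit of ISGF3, lies on chromosome 14 at 56222822 to 56228867 (mm9). It was listed at 6.36 FPKM in the Q7 line and 45.3 FPKM in the Q111 line, 7.12-fold more (implied 95% interval 4.0-fold to 12.7-fold). For Irf9 the authors' deposited table gave a log2 fold change of 2.83 (implied SE 0.42, q = 1.41e-09), gain number 68 among the same 10681 genes. Its partner Stat2 was called higher too. Stat2 rose from 8.04 to 48.5 FPKM, a log2 fold change of 2.59 (implied SE 0.39, q = 1.42e-09 in the authors' deposited table). The level of Irf9 was 0.79 times that of Stat2 in the Q7 line and 0.93 times in the Q111 line. Whether Irf9 and Stat2 differed in the size of their rise was not tested.

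Irf1 and Irf2, which act in opposite directions at shared sites, were both well expressed. Irf1 (chromosome 11, 53583516 to 53591876, mm9) was listed at 18 FPKM in the Q7 line and 33.8 FPKM in the Q111 line. The authors' deposited table gave Irf1 a log2 fold change of 0.91 (implied SE 0.42), with an implied 95% interval of 0.08 to 1.73. Irf1 was not called, since its p of 0.0308 became a q of 0.165 after adjustment in the authors' deposited table. The same table gave Irf2 (chromosome 8, 47825099 to 47932812, mm9) at 24.4 FPKM in the Q7 line and 24.3 FPKM in the Q111 line. Around the near-zero log2 fold change of Irf2 in the authors' deposited table (q = 0.999), the implied 95% interval was -0.76 to 0.75. The level of Irf1 was 0.74 times that of Irf2 in the Q7 line and 1.39 times in the Q111 line, a ratio for which the table gives no test.

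Irf4 and Irf8, the factors of lymphoid and myeloid cells, were close to absent. Irf4 (chromosome 13, 30841127 to 30858796, mm9) was listed at 0.0657 FPKM in the Q7 line and 0.00366 FPKM in the Q111 line. Irf8 (chromosome 8, 123260276 to 123280592, mm9) was listed at 0.119 FPKM in the Q7 line and 0.186 FPKM in the Q111 line. The authors ran no test on either gene, and at these levels no fold is given. Of 10 factors that pair with Irf4 or Irf8 in blood cells, 6 had no test and none of those 6 was above 0.216 FPKM. The tested 4 were Bcl6 (16.7 and 13.6 FPKM in the Q7 line and STHdhQ111), Tcf3 (59.8 and 45.0 FPKM), Batf3 (1.53 and 0.614 FPKM) and Prdm1. Of these only Prdm1, the repressor known as Blimp-1, was called, falling from 0.538 to 0.0217 FPKM (q = 0.0039 in the authors' deposited table). That is 25% of the tested 4, against 13.5% called among all tested genes. Both Prdm1 values are under 1 FPKM, and none of the tested 4 was called under the stricter Bonferroni adjustment. Leukocyte and microglial markers were measured beside these factors. Of the 15 listed, 13 had no test and were under 0.3 FPKM in both lines, and Cd3e and Tyrobp were listed at 0 in both. The pan-leukocyte marker Ptprc was listed at 0.0036 FPKM in the Q7 line and 0.0033 FPKM in the Q111 line. The summed level of the marker list was 26.9 FPKM in the Q7 line and 74.2 FPKM in the Q111 line. Nearly all of it came from the lysosomal gene Cd68 (26.5 and 72.4 FPKM), which was called higher, as was Laptm5 (0.175 and 1.08 FPKM). Both tested markers of the list were thus called, against 13.5% of all tested genes.

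**Figure D2:**
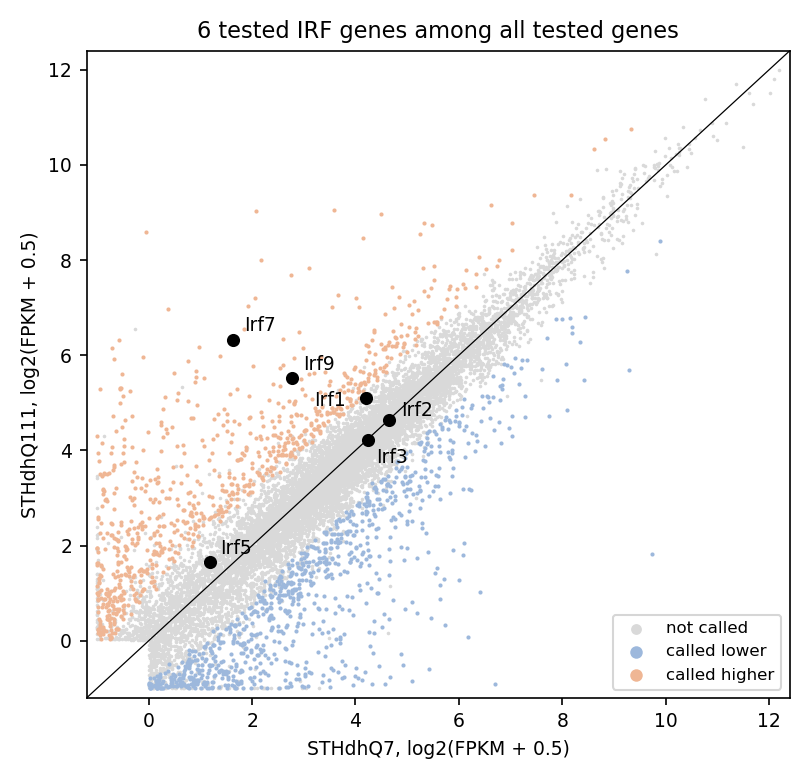
Level of each tested gene in the Q111 line against STHdhQ7 on the log2(FPKM + 0.5) scale, coloured by the authors' call, with the 6 tested IRF genes in black and the line of equal levels drawn. Irf7 and Irf9 lie among the genes called higher, Irf2 and Irf3 lie on the line, and Irf1 and Irf5 lie just above it.

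The promoters of the changed members were searched for the word of the ISRE, because ISGF3 is known to act on Irf7. The sequences come from RefSeq (GRCm38.p6), which had a window from 250 bases before to 50 after a start site for all 8 members. The word searched, on both strands, was GAAA followed after any 2 bases by another GAAA. It occurred in a window of 1 of the 8 members, Irf2, and in 3.99% of the 27025 genes of the promoter table. The STAT-type word TTCNNNGAA, which reads the same on both strands and was added after the first result was seen, occurred in 3 of the 8 (Irf1, Irf2 and Irf8) and in 9.55% of all genes. The windows of Irf7 and Irf9, the called members, held neither word, which says only that these letters are not in these windows. The stretches upstream of the start site are printed below on the strand of each gene, in lower case with these words in capitals. They show where each word lies.
Irf7 (chr7:141266500-141266674, minus strand, bases -250 to -76): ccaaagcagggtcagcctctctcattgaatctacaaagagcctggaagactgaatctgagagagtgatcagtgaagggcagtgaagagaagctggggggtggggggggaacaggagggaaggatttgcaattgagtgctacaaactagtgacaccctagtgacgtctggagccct
Irf9 (chr14:55603735-55603984, plus strand, bases -250 to -1): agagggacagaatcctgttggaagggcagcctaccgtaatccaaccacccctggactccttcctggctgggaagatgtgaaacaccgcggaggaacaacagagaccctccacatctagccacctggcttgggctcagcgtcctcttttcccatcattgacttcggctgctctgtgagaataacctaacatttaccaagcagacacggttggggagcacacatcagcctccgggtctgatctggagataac
Irf1 (chr11:53769764-53770013, plus strand, bases -250 to -1): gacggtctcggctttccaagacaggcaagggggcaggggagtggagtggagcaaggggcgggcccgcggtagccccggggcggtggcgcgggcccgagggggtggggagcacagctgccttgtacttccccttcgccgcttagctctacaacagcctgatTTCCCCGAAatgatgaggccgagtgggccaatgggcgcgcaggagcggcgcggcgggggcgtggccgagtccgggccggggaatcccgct
Irf2 (chr8:46739495-46739744, plus strand, bases -250 to -1): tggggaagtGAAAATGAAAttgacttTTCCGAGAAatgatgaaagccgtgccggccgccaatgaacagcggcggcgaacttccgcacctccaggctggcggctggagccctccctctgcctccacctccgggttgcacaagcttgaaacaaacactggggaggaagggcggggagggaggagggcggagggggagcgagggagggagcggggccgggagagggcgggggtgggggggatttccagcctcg

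The Irf1 word TTCCCCGAA lies at -90 to -82. In Irf2 the word GAAAATGAAA lies at -241 to -232 and TTCCGAGAA at -224 to -216, with no overlap between them. Base -1 is the base before the start site. For Irf7 only the bases outside the RefSeq span of the gene are printed.

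For comparison, the ISRE word was present in the windows of 8 of 18 ISRE-type target genes with a RefSeq promoter, 44.4%, and in 7 of 16 antigen presentation and interferon gamma response genes, 43.8%. It was present in 3 of 7 sensors (Ddx58, Ifih1 and Eif2ak2) and in 4 of 9 interferon genes, all 4 of them coding for interferon alpha. Among inhibitors and corepressors, of which 1 was called, 3 of 10 held it (Socs1, Trim21 and Rbck1). It was in 1 of 13 adaptors and kinases (Myd88) and in 0 of 8 blood-cell partners. Stat2 was the 1 of 10 receptor, Janus kinase and STAT genes to hold it. Stretches of 40 bases are printed for Stat2 and 4 interferon-stimulated genes, to show how the word varies among genes that rose. The capitals mark every full match within the stretch. The word reads as its reverse complement in Stat2 and Ifit1, and Isg15 holds 3 overlapping matches.
Stat2 (chr10:128270261-128270300, plus strand): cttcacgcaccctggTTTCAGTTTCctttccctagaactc
Isg15 (chr4:156200872-156200911, minus strand): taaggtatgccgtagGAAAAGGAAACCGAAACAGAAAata
Ifit1 (chr19:34640770-34640809, plus strand): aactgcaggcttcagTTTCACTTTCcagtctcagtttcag
B2m (chr2:122147533-122147572, plus strand): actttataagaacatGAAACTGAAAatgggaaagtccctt
Cxcl10 (chr5:92349078-92349117, minus strand): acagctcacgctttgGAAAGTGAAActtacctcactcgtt

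Of these 5 genes the table gave Isg15, a ubiquitin-like modifier, at 3.65 FPKM in the Q7 line and 146.9 FPKM in the Q111 line. Ifit1, an inhibitor of viral translation, was listed at 0.793 and 125.5 FPKM in the same order. The chemokine Cxcl10 was listed at 1.59 and 45.5 FPKM, and B2m, the light chain of MHC class I, at 388.7 and 1299 FPKM. All were called higher, and Ifit1 and Cxcl10 were chosen for this display after their values were seen.

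Upstream of the IRFs, sensors of nucleic acid came first. Of 9 tested sensors, 6 were called higher and none lower, 66.7% against 13.5% called among all tested genes. The RNA helicases were all among them, with Ddx58 (RIG-I) rising from 6.43 to 22.4 FPKM, Ifih1 (MDA5) from 0.213 to 2.94 FPKM and Dhx58 (LGP2) from 1.32 to 25.2 FPKM. The DNA sensor cGAS, listed as E330016A19Rik and matched by its RefSeq synonym, rose from 0.0651 to 1.5 FPKM. Zbp1, a sensor of Z-form nucleic acid, rose from 0.126 to 12.1 FPKM, and Eif2ak2 (PKR), a kinase activated by double-stranded RNA, rose from 8.65 to 21.3 FPKM. No Toll-like receptor gene of this list was called. Tlr2 was listed at 3.44 FPKM in the Q7 line and 2.57 FPKM in the Q111 line, Tlr3 at 1.78 and 1.36 FPKM and Tlr4 at 2.23 and 2.25 FPKM. Tlr7 and Tlr9, which feed Irf7 in specialised immune cells, were listed at 0 in the Q7 line and had no test. The median log2 ratio of (FPKM + 0.5) was 1.73 over the tested sensors. Ddx58, Ifih1 and Eif2ak2 are also among the genes whose windows held the ISRE word. Whether the sensors act above or below the IRFs in these lines was not tested. The list was chosen with earlier results of these data known, so its count is no independent evidence of direction.

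Of the 14 tested adaptors and kinases, 2 were called higher and none lower, 14.3% against 13.5% called among all tested genes. The IRF kinase Ikbke rose from 2.78 to 13.3 FPKM, a log2 fold change of 2.26 (implied SE 0.43, q = 4.86e-06 in the authors' deposited table). Its relative Tbk1 was listed at 14.9 FPKM in the Q7 line and 15.4 FPKM in the Q111 line and was not called (q = 0.995 in the authors' deposited table). The level of Ikbke was 0.19 times that of Tbk1 in the Q7 line and 0.87 times in the Q111 line. Myd88, the adaptor between Toll-like receptors and Irf5 or Irf7, rose from 16.2 to 37.4 FPKM (q = 0.0188 in the authors' deposited table). The kinases Irak1 (10.9 and 14.8 FPKM in the Q7 line and STHdhQ111) and Chuk (11.6 and 14.5 FPKM) did not pass the threshold. The median log2 ratio of (FPKM + 0.5) over these 14 genes was 0.27.

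The interferon genes themselves had no test. Of the 9 listed, 8 were listed at 0 in both lines, Ifnb1 and Ifng included. Ifna4 was listed at 0 in the Q7 line and 0.0308 FPKM in the Q111 line. The depth is unknown, so no upper limit can be set on these zeros.

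Receptors and Janus kinases were expressed in both lines and were not called. The type I receptor chains Ifnar1 (10.1 FPKM in the Q7 line and 13.3 FPKM in the Q111 line) and Ifnar2 (27.7 and 43.3 FPKM) bind interferon alpha and beta. For the interferon gamma receptor, Ifngr1 was listed at 25.9 and 15.1 FPKM and Ifngr2 at 28.2 and 35.3 FPKM in the same order. The interferon lambda receptor chains Il28ra (1.32 and 1.20 FPKM) and Il10rb (12.2 and 14.7 FPKM) were also present. Among the kinases, Jak1 was listed at 22.4 and 40.0 FPKM, Jak2 at 8.04 and 5.11 FPKM and Tyk2 at 6.87 and 7.84 FPKM. Stat3 (30.4 and 62.5 FPKM) missed the threshold with q = 0.0572 in the authors' deposited table. Stat2 was the 1 called gene of the 11 tested in this list, 9.09% against 13.5% among all tested genes, and the median log2 ratio of (FPKM + 0.5) was 0.32.

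**Figure D3:**
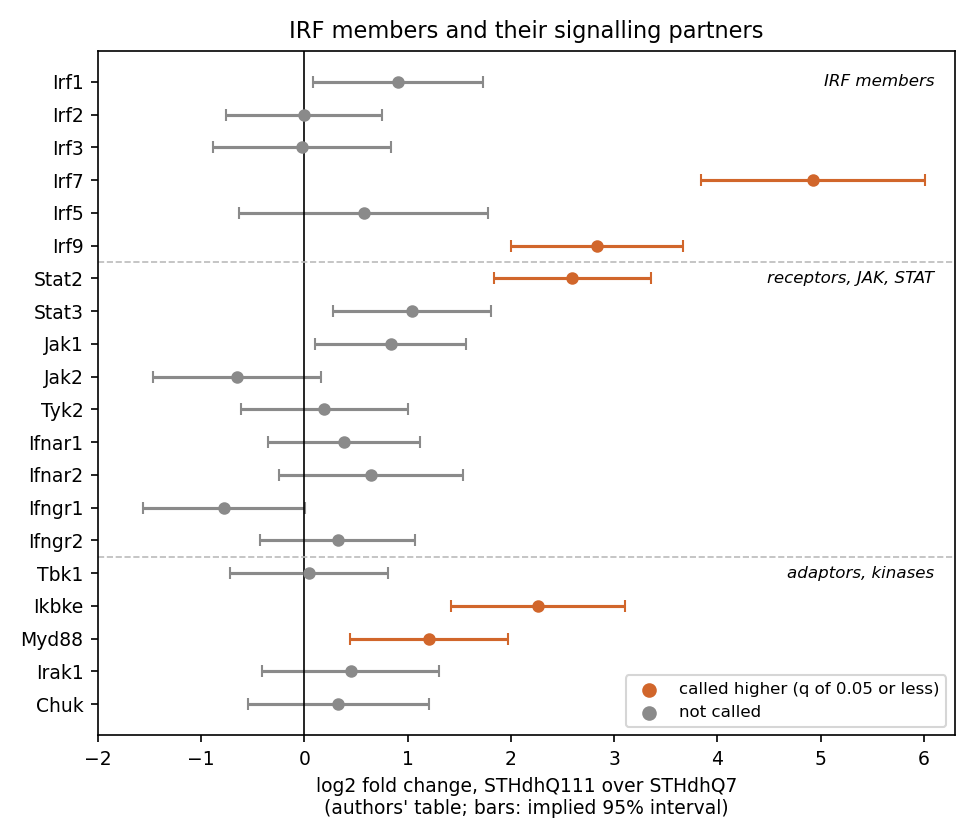
Log2 fold change of STHdhQ111 over STHdhQ7 in the authors' deposited table for the 6 tested IRF genes, 9 receptor, Janus kinase and STAT genes and 5 adaptors and kinases, with bars for the implied 95% interval. Irf7, Irf9, Stat2, Ikbke and Myd88 are called higher (orange), and the interval of Irf1 (0.08 to 1.73) lies above 0 although Irf1 is not called.

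Downstream, genes that IRFs act on were called higher in large part. Of 25 tested interferon-stimulated genes of the ISRE type, 24 were called higher and none lower, with a median log2 ratio of (FPKM + 0.5) of 2.95. The called share was 96%, against 13.5% among all tested genes. The called members with the highest level in the Q111 line were Ifitm3, a membrane protein that blocks virus entry (646.6 FPKM in the Q7 line and 1723 FPKM in the Q111 line), and the secreted glycoprotein gene Lgals3bp (17.2 and 353.0 FPKM). Next came the virus-tethering gene Bst2 (83.4 and 266.2 FPKM), Isg15 and Ifit3 (16.3 and 128.8 FPKM). The 1 member not called was Ifit2, at 15.4 FPKM in the Q7 line and 23.6 FPKM in the Q111 line. This list overlaps an interferon list whose direction in these data was already known, so its count is no independent evidence of direction.

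Antigen presentation and interferon gamma response genes, which Irf1 is known to activate, had 13 of 18 tested members called higher and none lower. Their median log2 ratio of (FPKM + 0.5) was 1.75. The called share was 72.2%, against 13.5% among all tested genes. The other 5 of the 23 listed genes, Ciita, Cxcl9, Casp1, Nos2 and Ido1, had no test. None of those 5 exceeded 0.228 FPKM in either line. This list was chosen with earlier results of these data known, so its count is no independent evidence of direction. B2m is given above. The peptide transporter gene Tap1 rose from 21.9 to 75.2 FPKM and the loading chaperone Tapbp from 61.5 to 149.1 FPKM. The GTPase Irgm1 rose from 20.0 to 89.0 FPKM and the proteasome activator Psme2 from 36.6 to 84.2 FPKM. Psme1 (53.6 FPKM in the Q7 line and 101.8 FPKM in the Q111 line), Tap2 (17.4 and 35.3 FPKM) and Il15 (0.762 and 2.47 FPKM) were not called. Cd274 (1.28 and 1.24 FPKM) and Iigp1 (0.00489 and 2.76 FPKM) were not called either. Irf1 itself was not called, with a log2 fold change of 0.91 and an implied 95% interval of 0.08 to 1.73. Whether Irf1 bears on the levels of these genes was not tested.

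Genes that restrain IRFs were mostly not called. Of 10 tested corepressors, inhibitors and modifying enzymes, 1 was called higher and none lower, 10% against 13.5% among all tested genes. The called gene was Socs3, a feedback inhibitor of Janus kinase signalling, which rose from 8.74 to 29.1 FPKM (q = 0.000583 in the authors' deposited table). The related Socs1 was listed at 4.42 FPKM in the Q7 line and 5.97 FPKM in the Q111 line. The corepressors that bind Irf2, Irf2bp1 (16.6 and 14.5 FPKM) and Irf2bp2 (43.2 and 39.8 FPKM), were not called. Irf2bpl (listed as 6430527G18Rik), at 53.6 and 51.0 FPKM, was not called either. Trim21, a ubiquitin ligase that marks IRFs for breakdown, was listed at 2.85 and 7.38 FPKM (q = 0.0583 in the authors' deposited table). Of the remaining uncalled genes, Rbck1 was listed at 40.3 and 66.2 FPKM, Tnfaip3 at 2.91 and 3.37 FPKM, Cyld at 18.7 and 15.7 FPKM and Pias1 at 8.70 and 12.9 FPKM.

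**Figure D4:**
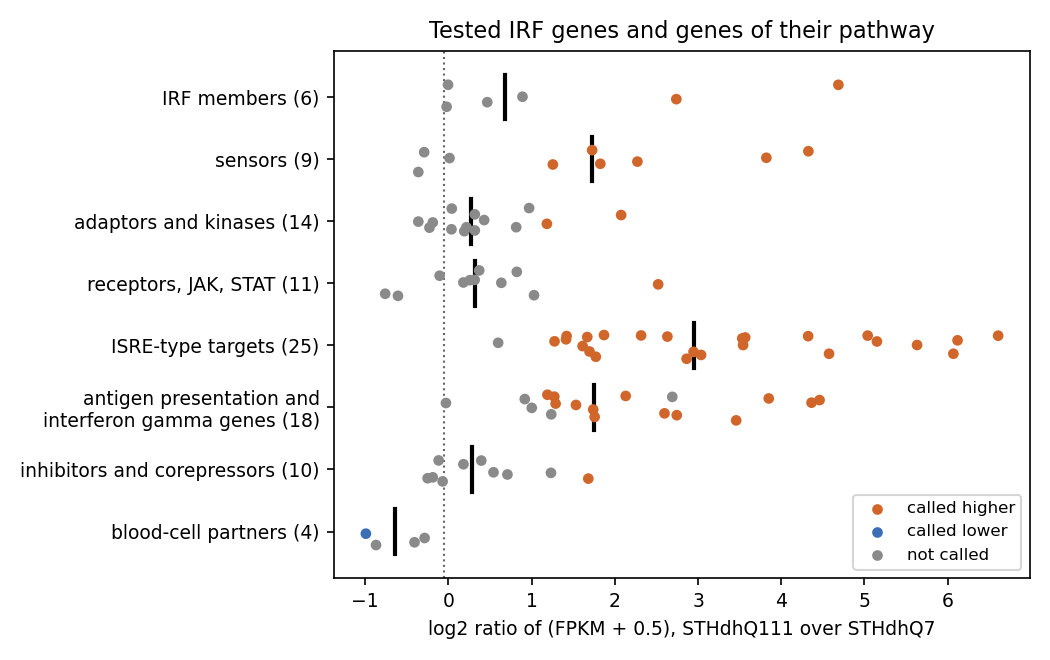
Log2 ratio of (FPKM + 0.5), STHdhQ111 over STHdhQ7, for each tested gene of the IRF family and of 7 pathway lists (numbers of tested genes in brackets), with black bars for list medians and a dotted line for the median of all tested genes. The medians run from -0.64 for the blood-cell partners to 2.95 for the ISRE-type targets, and points are coloured by the authors' call.

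The neighbours of the IRF genes were examined, because reads cannot always be assigned between overlapping genes. No listed locus overlapped any of the 8 members. Of the 18 nearest listed genes on either side, 13 were tested and none was called by the authors' Cuffdiff test, while 3 had an unadjusted p under 0.05 (Dusp22, Kcp and Rnf31). The called share among all tested genes was 13.5%, and 13 genes are few to set against it. Phrf1 lies 431 bases from Irf7, and its level was 12.5 FPKM in the Q7 line and 15.6 FPKM in the Q111 line. On its other side Cdhr5, 2660 bases away, was listed at 0.0234 and 0 FPKM. Rnf31, which lies 313 bases from Irf9, was listed at 9.29 and 16.8 FPKM (q = 0.163 in the authors' deposited table), and Rec8, 8135 bases away, at 0.00947 and 0.026 FPKM. Irf3 is packed between Bcl2l12, 68 bases away (5.35 and 5.18 FPKM), and Scaf1, 101 bases away (52.9 and 48.6 FPKM), and none of these was called. Of the words of 36 bases in the transcripts of each member (GENCODE M21, both strands), from 88.1% (Irf5) to 100% (Irf4 and Irf8) occurred in no other gene. The share was 99.8% for Irf7 and 96.3% for Irf9. The words that Irf5 shared came from its neighbour Tnpo3, listed at 21.9 and 24.1 FPKM.

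The tested genes whose levels in the 2 lines lay nearest to those of the called members were found by distance on the log2(FPKM + 0.5) scale, with provisional symbols left out. For Irf7 they were Cyp1b1 (distance 0.43, with 2.09 FPKM in the Q7 line and 63.1 FPKM in the Q111 line), Tgfbi (0.66, with 3.54 and 54.3 FPKM) and Aspn (0.69, with 1.46 and 72.1 FPKM). For Irf9 they were Sash1 (0.06, with 6.65 and 45.8 FPKM), Foxc1 (0.17, with 7.18 and 44.5 FPKM) and Tbx15 (0.28, with 5.35 and 40.3 FPKM). This likeness rests on 2 values per gene.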

How the data were processed

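Per the submitters' processing notes, the mm9 build was used with Bowtie 0.12.7, TopHat 1.4.0, Cufflinks 2.0.2 and Cuffdiff. The version of Cuffdiff and the annotation are not given in the sources used. Per the file headers, the deposited table has 1 FPKM per line from the authors, made over the replicates together, and a log2 fold change, a test statistic (a score whose sign is opposite to the fold change), a p-value and a q-value. Deposited p-values matched two-sided normal tails of the statistic within 2.7e-06, so fold change over statistic gives an implied standard error. Deposited q-values matched Benjamini-Hochberg values of the tested genes within 2.2e-06. p-values may measure technical spread only. Starts were read as 0-based and raised by 1. Only genes with a test entered calls, and 1 value per line allowed no further test. Levels on a log scale used a pseudocount of 0.5, which understates changes of low genes.

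The members and the 12 lists (157 entries, all matched, 5 by a RefSeq synonym) were chosen with earlier results of these data known. A few genes that the lists first held are not reported here and are in no count of a list. All members were named, every tested gene of lists with up to 12, and otherwise the 5 most abundant called and 3 most abundant uncalled genes. Genes named beyond that were chosen after their values were seen. Alternatives covered threshold, adjustment, filter, scaling, pseudocount and search word. The adjustment and word search were tested on simulated data. Python 3.11.15, numpy 2.4.6, pandas 2.3.3 and scipy 1.17.1 were used.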

Additional observations from a re-analysis of the deposited data

How the results depend on the processing

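Irf7 and Irf9 were called under each of the 5 other call rules tried, and Irf1, Irf2, Irf3 and Irf5 under none. These rules were a q of 0.01 or of 0.10, adjustment over genes whose mean reached 1 FPKM, Bonferroni adjustment and recentring by the median of expressed genes (-0.05). Of 42 alternative values of the tested members, all 42 kept their direction where called and their side of the threshold, or moved by less than the implied standard error. Over the 7 pathway lists 48 of 91 tested genes were called, and 28 under Bonferroni adjustment. There the calls over all tested genes went from 1723 (13.5%) to 577 (4.53%). The share of all tested genes called was 9.61% at a q of 0.01, 16.1% at a q of 0.10 and 13.4% after recentring. Of the genes whose mean reached 1 FPKM, 12.3% were called with adjustment over those genes. Bonferroni adjustment left 16 of 24 calls in the ISRE-type list and 3 of 6 in the sensors. It left 1 of 2 in adaptors and kinases, 7 of 13 in the antigen presentation list and 2 of 4 in the progenitor markers. It left 0 in the inhibitors, blood-cell partners, leukocyte and striatal markers. A q of 0.01 left 1 call in the adaptors and kinases and 1 in the striatal markers. A q of 0.10 or recentring gave 2 calls in the inhibitors and 2 in place of 1 in the receptor, Janus kinase and STAT list. The filter left 0 calls in the blood-cell partners and 1 call in the leukocyte markers. The median of the ISRE-type list was 4.19 with a pseudocount of 0.1. The word TTCNNNGAA, added after the data were seen, was in 3 members against 1 for the ISRE word.

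No paired analysis was possible because the table combines the replicates of each line, and leave-one-out values were not made for the same reason. The planned comparison of IRF protein sequences was not run. Depth is unknown, which limits what can be said of Irf4, Irf8 and the interferon genes.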
